A study of Mus musculus with 8 samples.

Results

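The translation initiation and elongation factors are the proteins that place the ribosome on an mRNA, find the start codon and then drive the ribosome along the coding sequence. Their genes were taken as the rows of the gene count table whose Ensembl identifier maps to a symbol that begins with Eif or Eef and a number, without the kinases of the Eif2ak family and the methyltransferases of the Eef1akmt family. This gave 79 of the 22430 genes in the table. Of these 79 genes, 17 had no count in any library, 4 had counts but a mean of at most 5 (Eif5a2, Eif4e3, Eef2kmt and Eif4ebp2), and 58 had a mean count over 5 and were tested. The 17 genes without a count were Eif4e1b and 16 numbered Eif1ad copies. The tested genes held between 5.63 and 2634 counts per library on average, with a median of 63.3, and the 79 genes together took between 1.51 and 1.64% of the counts of a library.

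The libraries came from whole brain hemispheres of 8 male C57Bl/6JRj mice, an inbred strain, of which 4 were young adults of 6 months (6m) and 4 were aged mice of 24 months (24m). There was 1 library per mouse, and neither the labels nor the methods name a treatment or an engineered allele. RNA was sequenced by the direct RNA protocol of Oxford Nanopore Technologies (ONT), in which the RNA strand itself is read as it passes a pore, and the deposited values are raw counts of reads per gene. The comparison of 24m with 6m asks which of these mRNAs differ in abundance between the young adult and the aged brain. All mice were males from 1 supplier, and a hemisphere mixes all brain cell types, so that fewer cells of a type and less RNA per cell cannot be told apart.

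Initiation begins with eIF2, a GTPase of 3 subunits that carries the initiator tRNA, and with eIF1 and eIF1A, which keep the ribosome scanning until a start codon is found. eIF2B reloads eIF2 with GTP, and the kinases that phosphorylate eIF2 act by blocking this step, a control point that has been studied widely in memory and neurodegeneration. The cap-binding complex eIF4F (eIF4E, eIF4G and the helicase eIF4A) brings the mRNA, the large scaffold eIF3 links it to the small ribosomal subunit, and eIF5B joins the large subunit. Elongation then needs eEF1A, which delivers aminoacyl-tRNA, its exchange factor eEF1B, and eEF2, which moves the ribosome by a codon. Many of these mRNAs carry a terminal oligopyrimidine (TOP) tract at their start, through which mTOR signalling controls their translation together with that of ribosomal proteins.

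Library totals ran from 573152 to 1255424 counts, so that a gene with 0 counts in a library could still hold up to 3 counts, or 2.30 to 5.42 CPM depending on the library. CPM are counts per 1000000 counts of the library size after TMM scaling, which allows for differences in composition between libraries. The aged library of replicate 1 stood apart from the other aged libraries, with a chi-square of 2.80 to 3.92 per degree of freedom against them and 1.29 to 1.89 within the other aged pairs. Differences between ages are given as log2FC, 24m minus 6m, and a gene is called changed at a Benjamini-Hochberg adjusted p (padj) of at most 0.05 over the 9375 tested genes and an absolute log2FC of at least 0.58. Defining markers of neurons, astrocytes, oligodendrocytes, microglia, endothelial cells and choroid plexus were all detected, and none of them was at 0 over the libraries. The marker genes of several cell types moved with age, where 10.3% of all tested genes were called higher and 4.17% lower. The summed level of 5 oligodendrocyte markers was 1562 to 2109.6 CPM at 6m against 2155 to 2888 CPM at 24m, with 2 of 5 called higher. The summed level of 5 microglial markers was 507 to 550.0 CPM at 6m against 639.7 to 892 CPM at 24m, with 0 of the 4 tested called. The 5 blood genes were all called lower, with sums of 6090.3 to 10032 CPM at 6m against 3350.4 to 6283 CPM at 24m. Among the markers of neurons 1 of 5 was called higher, with sums of 1509 to 1675 CPM at 6m against 1605 to 1831 CPM at 24m. Among those of astrocytes 2 of 4 tested were called higher and 1 lower, with sums of 2222 to 2704 CPM at 6m against 2234 to 2971 CPM at 24m. None of the 3 tested endothelial and 4 tested choroid plexus markers was called. The part of these shifts in the values below was not tested.

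Of the 58 tested factors, 5 (8.62%) were called changed between the ages, compared with 14.5% of all tested genes. Eif4h, Eif4b and Eif2s3x were called higher at 24m (5.17% of the factors, against 10.3% of all tested genes), and Eif5b and Eif2b4 were called lower (3.45%, against 4.17%). By adjusted p alone, without the minimum on log2FC, 11 factors were lower (19.0%, against 9.42% of all tested genes) and 3 were higher (5.17%, against 12.3%). The 11 became 6 with library totals alone and without young adult replicate 1 or aged replicate 2 (all 6 among the 11 in each case). Without aged replicate 3 there were also 6, of which 5 were among the 11 (Eef1d, Eef1g, Eif3c, Eif4g1 and Eif5b). In these settings the share of all tested genes fell as well, to between 5.11 and 5.79%. log2FC was below 0 for 41 of the 58 factors (70.7%, against 50.3% of all tested genes), and their median log2FC was −0.15, where that of all tested genes was −0.003. The libraries of the ages did not overlap for 14 factors (24.1%, against 21.1%), of which 4 were above and 10 below at 24m. Over all tested genes, 71.2% of the calls were higher here, 84.5% with library totals alone and 59.2% with quantile normalization and limma-voom, which changes the scaling and the test together. With library totals alone, the median of all genes was 0.10.

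**Figure D1:**
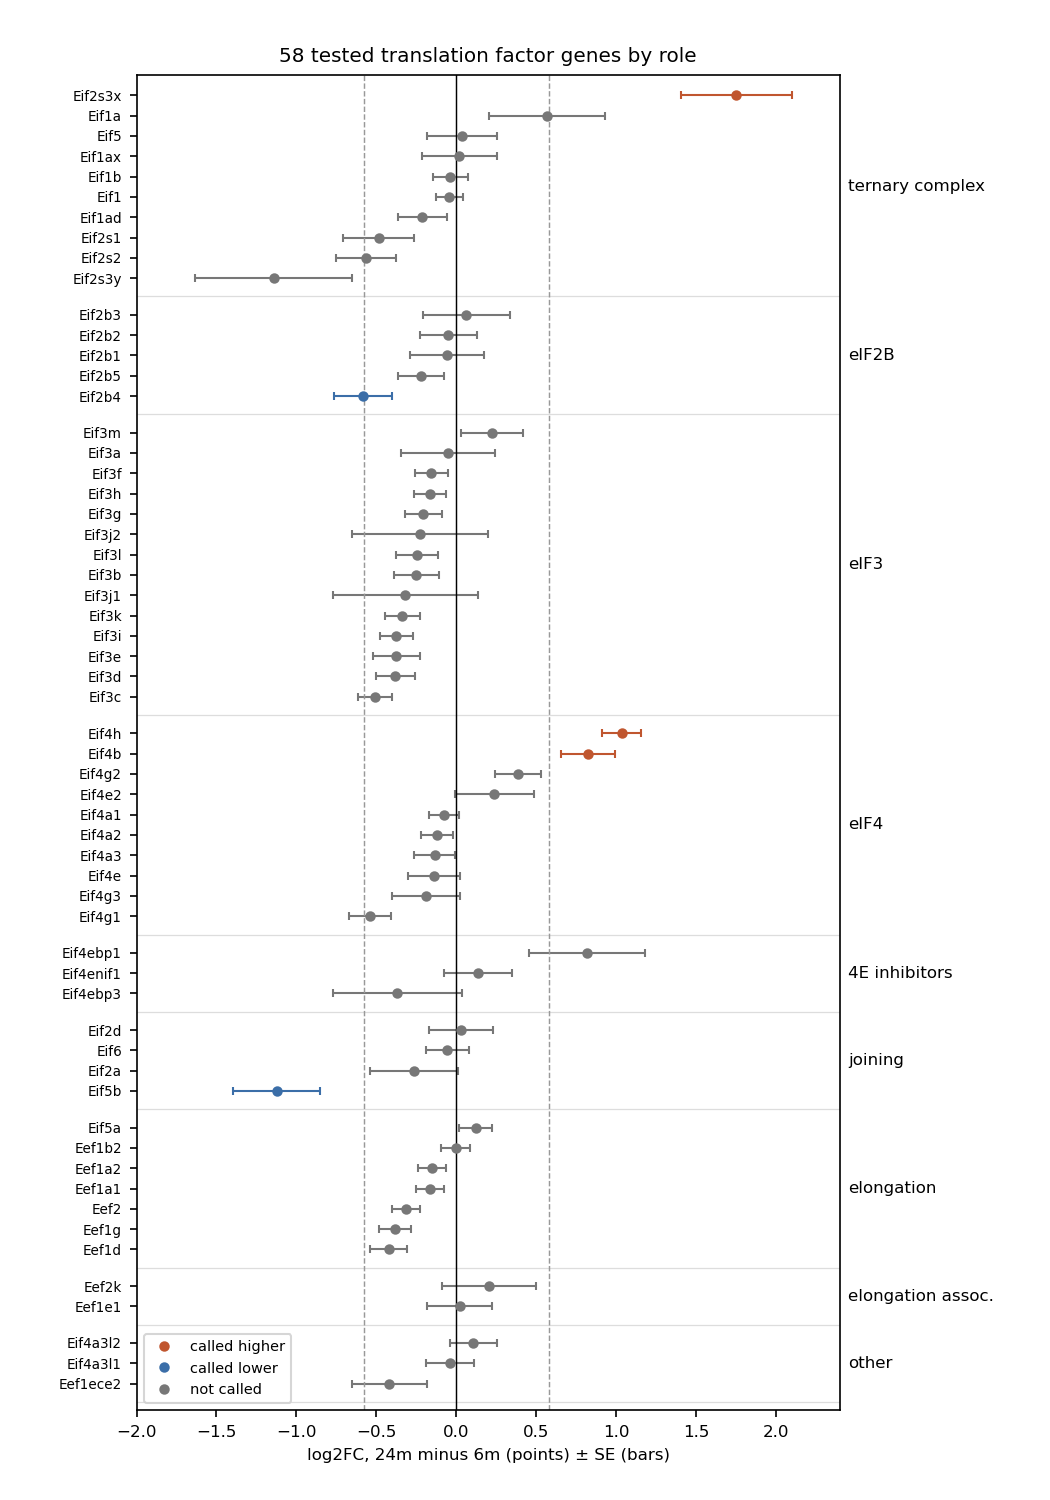
log2FC between 24m and 6m (points) with its SE (bars) for the 58 tested factors, ordered within groups by role, with dashed lines at an absolute log2FC of 0.58. The called genes are coloured: Eif2s3x (1.75), Eif4h (1.03) and Eif4b (0.82) lie to the right, Eif5b (−1.12) and Eif2b4 (−0.58) to the left. Of the 14 eIF3 genes, 13 lie left of 0.

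Eif2s3x showed the largest log2FC of the factors. It lies on the X chromosome (GRCm39 chrX:93232313-93256468, minus strand) and encodes the gamma subunit of eIF2, which binds the initiator tRNA and GTP. Male mice also carry Eif2s3y, its homologue on the Y chromosome (chrY:1008409-1047462, plus strand), which is known for its need in spermatogenesis. Their canonical transcripts were 86.4% identical over 1426 aligned bases. The first 60 coding bases, in exon 1 of 12 in both genes, are shown. They are the ungapped aligned coding stretch of this length, within 1 exon of each gene, with the most differences. How many reads reach this stretch was not examined. Capitals mark the 13 positions at which the genes differ, and the coordinates are chrX:93256180-93256239 (minus strand) and chrY:1010617-1010676 (plus strand).
Eif2s3x: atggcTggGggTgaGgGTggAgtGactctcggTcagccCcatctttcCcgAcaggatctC
Eif2s3y: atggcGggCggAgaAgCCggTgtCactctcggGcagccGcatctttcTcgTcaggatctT

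Eif2s3x had 7.39, 9.04, 6.22 and 3.77 CPM in the young adult libraries and 16.8, 20.8, 19.2 and 28.4 CPM in the aged libraries. Every aged library was above every young adult library (log2FC = 1.75, SE 0.346, padj = 0.000823, edgeR quasi-likelihood test). Its read counts were 6, 5, 5 and 3 at 6m against 11, 20, 15 and 37 at 24m. The young adult counts lay near the minimum mean of 5, with replicate 4 at the floor of 3 counts. The gene thus passed the count filter through its aged libraries. Eif2s3y had 9.85, 10.8, 14.9 and 3.77 CPM at 6m against 1.52, 5.20, 8.96 and 2.30 CPM at 24m, with overlapping libraries (log2FC = −1.14, SE 0.490, padj = 0.0970). It was called lower without young adult replicate 4 (log2FC = −1.42) or aged replicate 3 (−1.62). Of the reads on both genes, Eif2s3x held 42.9, 45.5, 29.4 and 50% at 6m and 91.7, 80.0, 68.2 and 92.5% at 24m. This share is given as a description, since the pair was chosen after its values were seen, and rests on 6 to 40 reads per library. The level of both genes together was 16.5 ± 6.17 CPM at 6m against 25.8 ± 5.35 CPM at 24m (SD, n = 4 per age), so that it overlapped between the ages.

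The other genes of start site selection and of eIF2 were not called. Eif1, which held the most reads of this group, had 1072, 1117, 1075 and 1120.1 CPM at 6m against 1011, 1106, 1019 and 1115 CPM at 24m (log2FC = −0.04, SE 0.0824). Its paralogue Eif1b had 203, 217, 217 and 272 CPM at 6m against 219, 221, 209.9 and 235 CPM at 24m (log2FC = −0.04, SE 0.110). The sign of both small differences turned with the scaling, to 0.06 for Eif1 and 0.07 for Eif1b with library totals alone. The genes of the alpha and beta subunits of eIF2 had a log2FC below 0. Eif2s2 (beta) had 65.2, 54.2, 48.5 and 47.7 CPM at 6m against 29.0, 32.2, 31.99 and 47.6 CPM at 24m, which left a gap of under 1 CPM between the ages (log2FC = −0.56, SE 0.188, padj = 0.0325, under the minimum for a call). It was called lower without young adult replicate 3 (log2FC = −0.61), young adult replicate 4 (−0.61) or aged replicate 4 (−0.77), and with quantile normalization and limma-voom (−0.60). Eif2s1 (alpha, the subunit that stress kinases phosphorylate) had 32.003, 39.8, 43.6 and 47.7 CPM at 6m against 22.9, 27.0, 20.5 and 40.7 CPM at 24m, with overlap (log2FC = −0.48, SE 0.222, padj = 0.122), and was called lower only when aged replicate 4 was left out (−0.76). Over the 10 genes of this group, log2FC was below 0 for 6 (50.3% over all tested genes) and the median was −0.04 (−0.08 to 0.07 over the other settings).

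**Figure D2:**
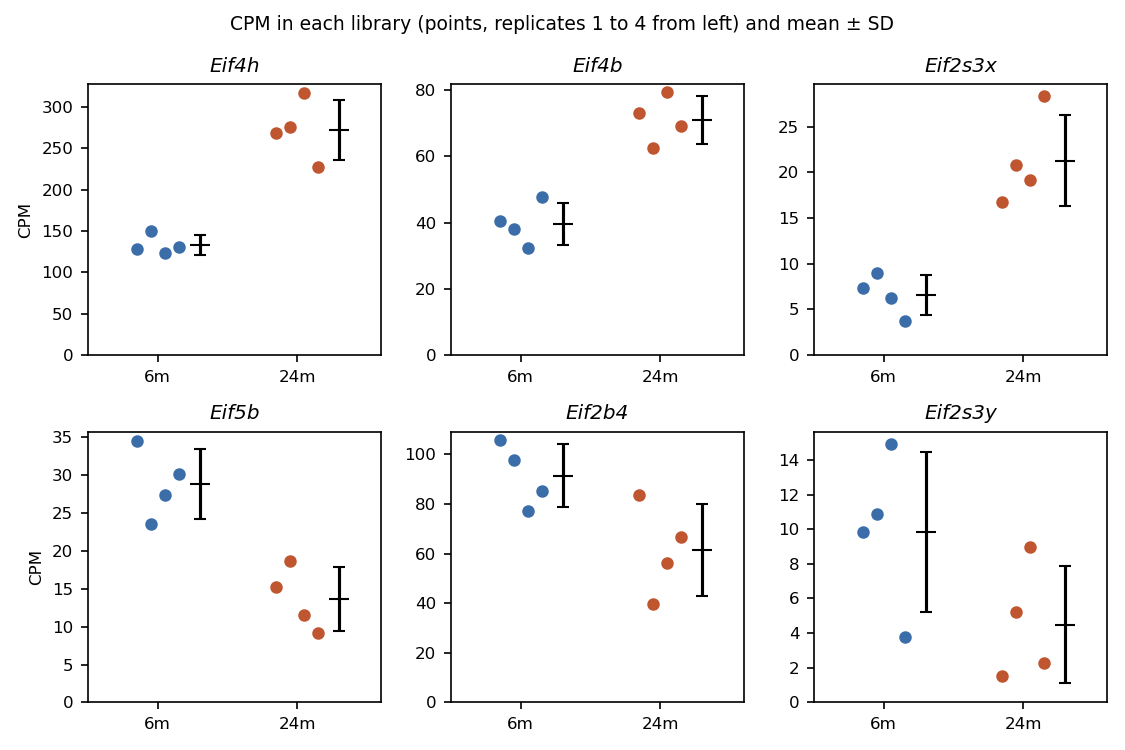
CPM in each of the 4 libraries per age (points, replicates 1 to 4 from left to right) with mean ± SD (bars) for the 5 called factors and for Eif2s3y, each on its own linear axis from 0. The ages do not overlap for Eif4h, Eif4b, Eif2s3x and Eif5b, and they overlap for Eif2b4 and Eif2s3y.

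Among the 5 subunits of eIF2B, Eif2b4, the delta subunit of the regulatory core, was called lower. Of the 5 log2FC, 4 were below 0 (50.3% over all tested genes), with a median of −0.06 (−0.20 to 0.05 over the other settings). Eif2b4 had 106, 97.6, 77.2 and 85.4 CPM at 6m against 83.8, 39.5, 56.3 and 66.7 CPM at 24m (log2FC = −0.58, SE 0.180, padj = 0.0213). Aged replicate 1 lay among the young adult libraries, the fold was at the minimum for a call, and the call was lost under 11 of 19 other settings, with padj between 0.00238 and 0.111. Without young adult replicate 1 or 2, or aged replicate 2 or 3, the gene was not called. It shares 239 exon bases with Snx17 on the opposite strand (log2FC = −0.03, padj = 0.883). Eif2b5, the catalytic epsilon subunit and the eIF2B gene with the most reads, had 124, 118, 98.3 and 95.4 CPM at 6m against 111, 84.2, 97.3 and 84.4 CPM at 24m, with overlap (log2FC = −0.22, SE 0.146, padj = 0.301).

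None of the 14 tested genes of eIF3 was called, yet 13 of them had a log2FC below 0 (50.3% over all tested genes), with Eif3m (0.23, padj = 0.440) as the exception. Their median was −0.25, where that of all tested genes was −0.003. The 14 genes include Eif3j1 and Eif3j2, both below 0, which could not be told apart and may rest on the same reads. Across the 19 other settings, 11 to 13 of the 14 genes were below 0 and the median ran from −0.32 to −0.14. At a padj of at most 0.05, 4 were lower (28.6%, against 9.42% of all tested genes), all under the minimum log2FC. This count changed when single libraries were left out, and so did the share of all tested genes. Without aged replicate 2 or aged replicate 3 it was 1 (Eif3c), where that share was 5.61 and 5.79%. Without aged replicate 1 it was 6, where that share was 12.2%. The count was 2 (Eif3c and Eif3i) with DESeq2, with library totals alone and without young adult replicate 1, 3 or 4. In these settings that share was 5.11 to 6.24%. Eif3c, of the octamer core, had 283, 318, 329.8 and 281 CPM at 6m against 213, 208, 191 and 235 CPM at 24m, without overlap (log2FC = −0.51, SE 0.104, padj = 0.00119). Eif3d, the subunit known to bind the cap of some mRNAs, had 182, 157, 168 and 176 CPM at 6m against 152, 135, 116 and 124 CPM at 24m (log2FC = −0.38, SE 0.121, padj = 0.0253). Eif3i had 313, 324, 302 and 319 CPM at 6m against 294, 218, 227 and 235 CPM at 24m (log2FC = −0.38, SE 0.105, padj = 0.0122). For both genes every aged library was below every young adult library.

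Aged replicate 1 was nearer to the young adult libraries than the other aged libraries for several eIF3 subunits. Eif3k had 492, 427, 463 and 453 CPM at 6m against 473, 311, 331 and 348 CPM at 24m (log2FC = −0.34, SE 0.109, padj = 0.0279), and its replicate 1 was the only aged library within the range of the young adults. Eif3f, which held the most reads of the group, had 494, 546, 441 and 566 CPM at 6m against 550.3, 433, 431 and 429 CPM at 24m (log2FC = −0.16, SE 0.102, padj = 0.296). Without aged replicate 1, log2FC was −0.47 for Eif3k, −0.46 for Eif3i, −0.44 for Eif3d, −0.24 for Eif3f and −0.50 for Eif3c, and none of these genes was called.

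**Figure D3:**
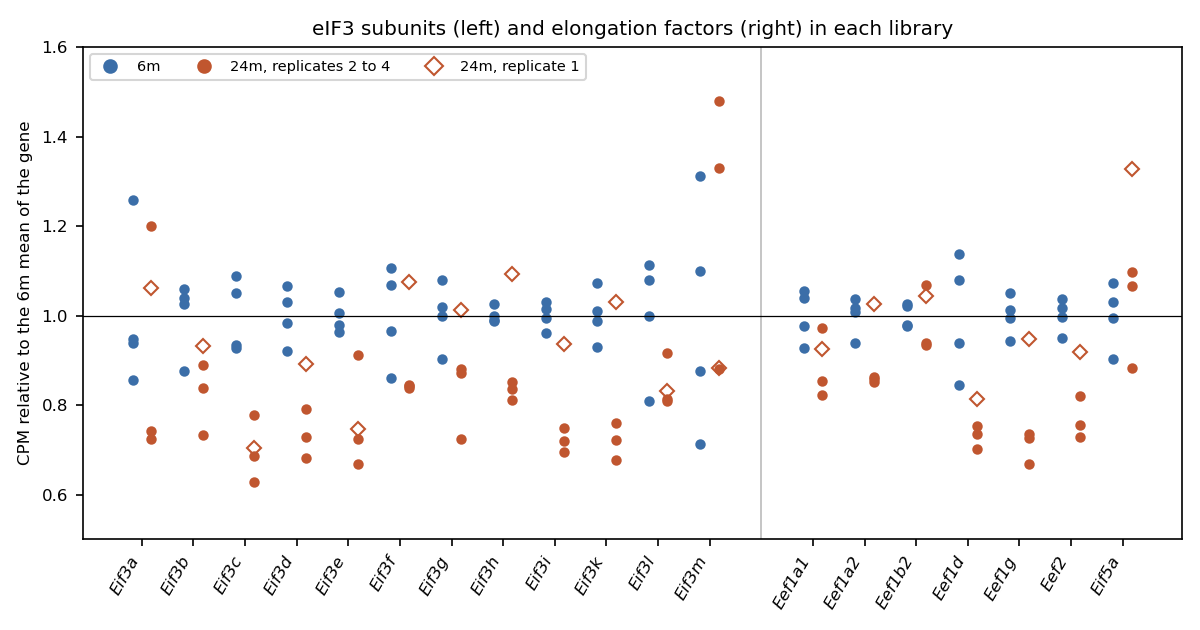
CPM of each library divided by the 6m mean of the gene, for 12 eIF3 genes (left; the near-identical Eif3j1 and Eif3j2 are left out) and 7 elongation factor genes (right); open diamonds mark aged replicate 1. The aged libraries of replicates 2 to 4 lie below 1 for Eif3b to Eif3l and for Eef1a1, Eef1a2, Eef1d, Eef1g and Eef2, whereas replicate 1 lies at or above 1 for Eif3a, Eif3f, Eif3g, Eif3h, Eif3k, Eef1a2, Eef1b2 and Eif5a.

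Eif3j1 (chromosome 2) and Eif3j2 could not be told apart in these counts. Their canonical transcripts were 99.4% identical over 2379 bases, with 14 differences, and their counts per library differed by −1 to 2 reads, adding up to 62 and 64 reads. Neither was called (log2FC = −0.32 and −0.23, SE 0.454 and 0.427), and both values are uncertain.

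Of the 3 factors called higher, 2 encode cofactors that work with the cap-binding complex, and none of the tested genes of eIF4E, eIF4G and eIF4A was called higher. Eif4h (chr5:134648575-134668400, minus strand) and Eif4b (chr15:101982075-102005614, plus strand) encode RNA-binding cofactors that stimulate the helicase eIF4A in unwinding mRNA leaders. Eif4h had 128, 150.1, 123 and 131 CPM at 6m against 268, 276, 317 and 228 CPM at 24m, so that the mean rose from 133 ± 11.8 to 272 ± 36.7 CPM (SD, n = 4 per age; log2FC = 1.03, SE 0.120, padj = 1.06e-06). Eif4b had 40.6, 38.0, 32.4 and 47.7 CPM at 6m against 73.2, 62.4, 79.3 and 69.0 CPM at 24m (log2FC = 0.82, SE 0.168, padj = 0.00110). For both genes the lowest aged library was above the highest young adult library, and both were called higher in all 19 other settings, with log2FC from 0.96 to 1.14 for Eif4h and from 0.74 to 0.94 for Eif4b.

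The helicases that these cofactors assist were not called. Eif4a1 had 346, 335, 372 and 332 CPM at 6m against 335, 307, 314 and 354 CPM at 24m (log2FC = −0.08, SE 0.0943, padj = 0.597; 0.03 with library totals alone). Eif4a2, the paralogue known for its high level in brain, had 447, 528, 568 and 452 CPM at 6m against 398, 468, 454 and 502 CPM at 24m (log2FC = −0.12, SE 0.0991, padj = 0.411). Eif4a2 took 58.9 ± 2.27% of the reads on both genes at 6m and 58.1 ± 2.67% at 24m (SD, n = 4 per age), which overlapped between the ages (two-sided exact permutation test, p = 0.714). Eif4a1 has 3 near-identical copies, none of them among the genes counted, and Eif4a2 has none. The multi-mapping setting is not stated, so this share is uncertain to that extent. The cap-binding protein gene Eif4e (log2FC = −0.14) and its relative Eif4e2 (0.24) were not called either.

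The scaffolds of the complex had log2FC of opposite sign, and neither was called. Eif4g1, which bridges the cap-binding protein and the helicase, had 176, 193, 195 and 218 CPM at 6m against 160.0, 154, 123 and 107 CPM at 24m, without overlap (log2FC = −0.54, SE 0.132, padj = 0.00459, under the minimum for a call). Eif4g2, also known as DAP5, lacks the site for the cap-binding protein and serves cap-independent initiation. It had 113, 130.2, 143 and 108 CPM at 6m against 123, 175, 143 and 195 CPM at 24m, with overlap (log2FC = 0.39, SE 0.142, padj = 0.0518). Of the reads on both genes, Eif4g2 took 39.1, 40.2, 42.3 and 33.1% at 6m and 43.5, 53.2, 53.8 and 64.5% at 24m. The share did not overlap between the ages and its mean was 38.7 ± 3.96% at 6m and 53.8 ± 8.55% at 24m (two-sided exact permutation test, p = 0.0286, the smallest value that 4 against 4 allows). Over the 5 pairs tested the Benjamini-Hochberg adjusted p was 0.143, so the difference did not pass the correction, and that of the other 4 pairs was 0.857 to 0.943. Both genes together had 319 ± 21.2 CPM at 6m against 295 ± 26.7 CPM at 24m. Eif4g3, the third scaffold, had a log2FC of −0.19 (SE 0.214). Eif4g1 was called lower without young adult replicate 1 (log2FC = −0.58), aged replicate 1 (−0.61) or aged replicate 2 (−0.61), and Eif4g3 without aged replicate 4 (−0.59).

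**Figure D4:**
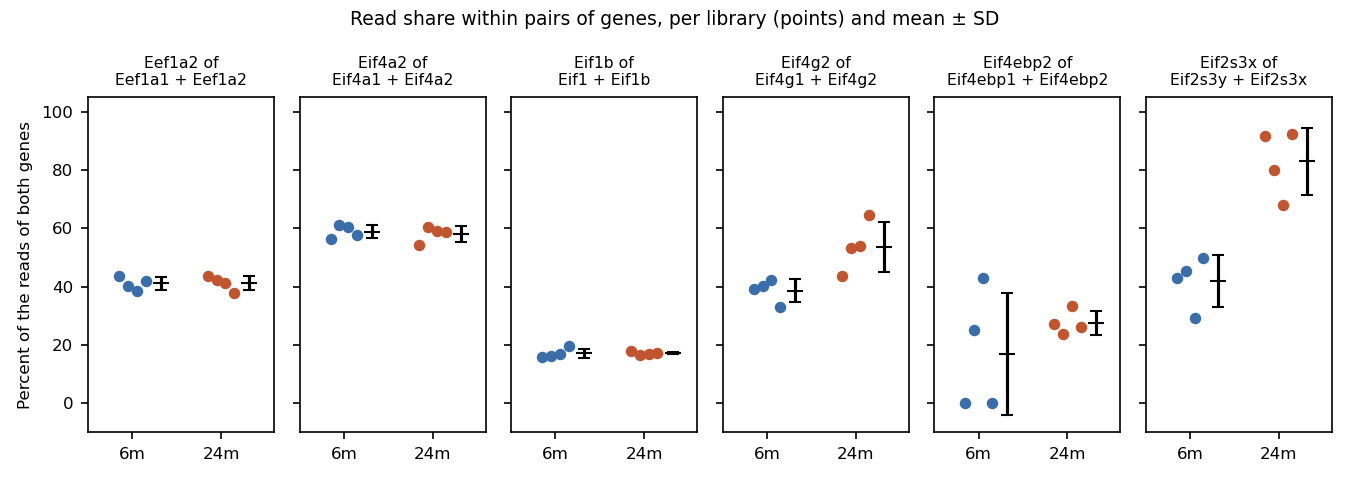
Share of the reads on both genes of a pair that fell on the first-named gene, in percent, for each library (points) with mean ± SD (bars) at 6m and 24m. The ages do not overlap for Eif4g2 (33.1 to 42.3% against 43.5 to 64.5%) and for Eif2s3x, a pair chosen after its values were seen (29.4 to 50% against 68.2 to 92.5%), and they overlap for the other 4 pairs.

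Eif4a3, a helicase of the exon junction complex that shares its name with the initiation helicases, was counted beside the copies Eif4a3l1 and Eif4a3l2, which are 95.7 and 96.4% identical to it. The 60 bases below lie in exon 1 of the 12 exons of Eif4a3 (chr11:119190758-119190817, minus strand) and in the single exon of Eif4a3l2 (chr6:116528130-116528189, plus strand). They are the ungapped aligned coding stretch of this length, within 1 exon of each gene, with the most differences. Capitals mark the 8 differences in it, where the whole alignment of 1361 bases held 49.
Eif4a3: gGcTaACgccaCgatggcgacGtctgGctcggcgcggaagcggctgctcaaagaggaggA
Eif4a3l2: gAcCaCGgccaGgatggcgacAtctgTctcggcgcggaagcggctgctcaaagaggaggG

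Over the 8 libraries, 818 reads were counted on Eif4a3, 501 on Eif4a3l1 and 612 on Eif4a3l2. Per library, Eif4a3l1 had 0.552 to 0.680 reads and Eif4a3l2 0.657 to 0.895 reads for each read of Eif4a3. For Eif4a3l1 this ratio overlapped between the ages (0.552 to 0.680 at 6m and 0.572 to 0.680 at 24m). For Eif4a3l2 it did not, with 0.657 to 0.713 at 6m and 0.738 to 0.895 at 24m, which is given as a description, since the ages were compared after the values were seen. None of the 3 genes was called (log2FC = −0.13, −0.04 and 0.11). Eif4a3l2, which held the most reads among the symbols outside the initiation and elongation groups, had 84.9, 103, 88.4 and 82.9 CPM at 6m against 117, 89.4, 101 and 82.1 CPM at 24m (SE 0.148, padj = 0.652). The multi-mapping setting of the counting is not stated, and the levels of these 3 genes are uncertain for that reason.

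**Figure D5:**
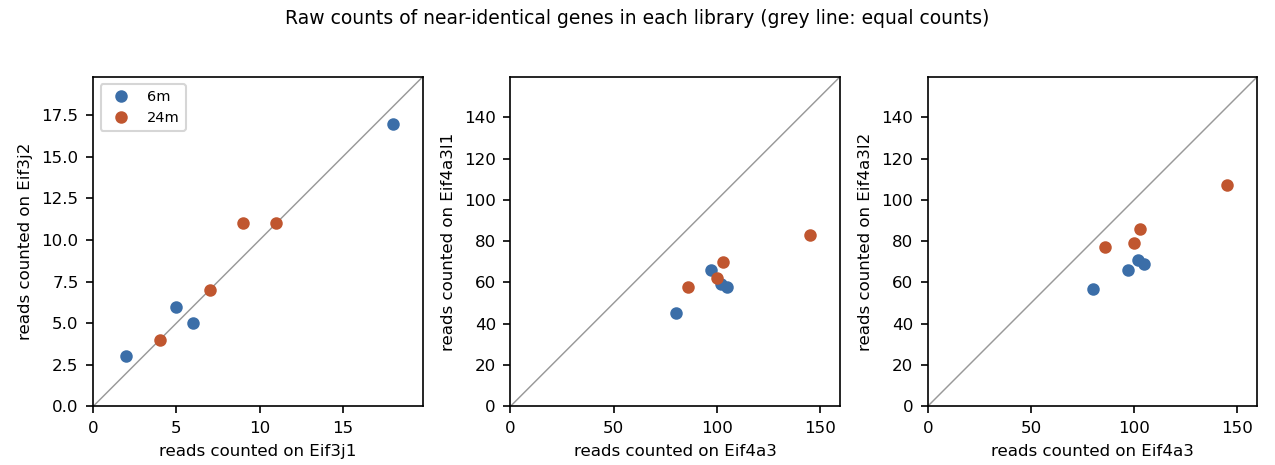
Raw counts of 3 pairs of near-identical genes in each library, with the grey line at equal counts; blue points are 6m and orange points 24m. Eif3j1 and Eif3j2 lie on the line within 2 reads, and Eif4a3l1 and Eif4a3l2 lie below it in every library.

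The proteins that bind eIF4E and keep it from eIF4G were counted at low levels. Eif4ebp1, a repressor that mTOR inactivates by phosphorylation, had 11.1, 5.42, 4.98 and 10.05 CPM at 6m against 12.2, 16.6, 15.4 and 13.0 CPM at 24m. Every aged library was above every young adult library, from 3 to 17 reads in each, and the test did not pass (log2FC = 0.82, SE 0.361, padj = 0.107). Eif4ebp2, the form known from neurons, had 0, 1, 3 and 0 reads at 6m against 3, 5, 6 and 6 reads at 24m. Its share of the reads on both genes was 17.0 ± 20.9% at 6m and 27.6 ± 4.07% at 24m, from 4 to 23 reads per library (two-sided exact permutation test, p = 0.343, n = 4 per age), a difference not detectable at this depth. Eif4enif1, which carries eIF4E into the nucleus and to processing bodies, had 45.5, 25.3, 32.4 and 28.9 CPM at 6m against 29.0, 32.2, 46.1 and 39.1 CPM at 24m (log2FC = 0.14, SE 0.214).

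Among the late factors, Eif5b (chr1:38037038-38094683, plus strand), the GTPase that joins the ribosomal subunits, was called lower. It had 34.5, 23.5, 27.4 and 30.1 CPM at 6m against 15.2, 18.7, 11.5 and 9.20 CPM at 24m. Every aged library was below every young adult library (28.9 ± 4.61 against 13.7 ± 4.18 CPM, SD, n = 4 per age; log2FC = −1.12, SE 0.271, padj = 0.00425), and the gene was called lower in all 19 other settings. Eif5b shares 1959 exon bases with Rev1 on the opposite strand, which was itself called lower (log2FC = −0.65, SE 0.236, padj = 0.0485), and the strand setting of the counting is not stated. Eif6, which keeps the large subunit from joining too early and held the most reads of this group, had 128, 101, 129 and 141 CPM at 6m against 133, 109, 113 and 129.6 CPM at 24m (log2FC = −0.06, SE 0.133; 0.05 with library totals alone). Eif2a (−0.27) and Eif2d (0.03), which can deliver initiator tRNA without eIF2, were not called.

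Of the 7 tested elongation factor genes none was called (0%, against 14.5% of all tested genes). Their log2FC was below 0 for 6 (50.3% over all tested genes), with a median of −0.16. Eef1a1, the ubiquitous form of eEF1A, had 3113, 3540.4, 3489 and 3275 CPM at 6m against 3105, 2757, 2863 and 3258 CPM at 24m (log2FC = −0.16, SE 0.0876, padj = 0.193). Eef1a2, the form that replaces it in mature neurons and muscle, had 2431, 2383, 2200.5 and 2362 CPM at 6m against 2407, 2009.7, 2023 and 1996 CPM at 24m (log2FC = −0.15, SE 0.0874, padj = 0.220). Quantile normalization with limma-voom, which changes the scaling and the test together, gave 0.08 for Eef1a1 and 0.11 for Eef1a2 and turned the median of the group to 0.08. Under the RLE, upper quartile and library total scalings, with the test kept, log2FC stayed below 0 at −0.16 to −0.06 for Eef1a1 and −0.15 to −0.05 for Eef1a2. Eef1a2 took 43.8, 40.2, 38.7 and 41.9% of the reads on both genes at 6m and 43.7, 42.2, 41.4 and 38.0% at 24m. This share, which does not depend on the scaling, was 41.2 ± 2.22% and 41.3 ± 2.404% (SD, n = 4 per age), which overlapped between the ages (two-sided exact permutation test, p = 0.943). Eif1b likewise took 17.1 ± 1.66% of the reads on Eif1 and Eif1b at 6m and 17.3 ± 0.492% at 24m (two-sided exact permutation test, p = 0.943, n = 4 per age). Eef1a1 has 7 near-identical copies, none of them among the genes counted, and Eef1a2 has none. The multi-mapping setting is not stated, so the Eef1a2 share is uncertain to that extent.

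By adjusted p alone, 3 of the 7 elongation factor genes were lower (42.9%, against 9.42% of all tested genes), all under the minimum log2FC. They encode the delta and gamma subunits of the exchange factor and the translocase. The count was 2 with library totals alone (against 5.11% of all tested genes) and 5 without aged replicate 1 (against 12.2%). Eef1d (delta) had 226, 177, 197 and 239 CPM at 6m against 171, 158, 147 and 154 CPM at 24m, without overlap (log2FC = −0.42, SE 0.117, padj = 0.0117), and its padj was over 0.05 without young adult replicate 1 or 4. The gene shares 360 exon bases with Naprt on the same strand (log2FC = −0.52, padj = 0.318). It also shares 981 with Tigd5 on the opposite strand (log2FC = 0.05, padj = 0.943). Eef1g (gamma) had 880.1, 928, 946 and 981 CPM at 6m against 884, 686, 623 and 678 CPM at 24m, where aged replicate 1 was the only aged library within the range of the young adults (log2FC = −0.38, SE 0.0975, padj = 0.00641). Eef2 had 2083, 1944, 2042 and 2122 CPM at 6m against 1881, 1679, 1548 and 1493 CPM at 24m, without overlap (log2FC = −0.31, SE 0.0883, padj = 0.0130). Its log2FC ran from −0.37 to −0.12 over the 19 other settings, with padj between 6.76e-05 and 0.172. The beta subunit Eef1b2, in contrast, had 434, 432, 413 and 414 CPM at 6m against 442, 397, 395 and 453 CPM at 24m, with overlap (padj = 0.981). Eif5a, whose product carries the amino acid hypusine and helps at stalled peptide bonds, had a log2FC of 0.12 (SE 0.105). Of the associated genes, Eef2k, the kinase that inactivates eEF2, had a log2FC of 0.20 (SE 0.296). Eef1e1, a scaffold of the aminoacyl-tRNA synthetase complex, had 39.4, 63.3, 57.3 and 33.9 CPM at 6m against 50.3, 37.4, 39.7 and 62.1 CPM at 24m (log2FC = 0.02, SE 0.204, padj = 0.955).

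For the 9 factors taken from textbook knowledge as TOP mRNAs (Eef1a1, Eef1b2, Eef1d, Eef1g, Eef2, Eif3e, Eif3f, Eif3h and Eif4b), log2FC was below 0 for 8 (50.3% over all tested genes), with a median of −0.16, and Eif4b was the exception. The 83 tested cytosolic ribosomal protein genes, which carry TOP tracts as well, had a median of −0.28, with 81 below 0. Of the 83, 2 were called lower (2.41%, against 4.17% of all tested genes) and 45 were lower by adjusted p alone (54.2%, against 9.42%). The 45 became 19 with quantile normalization and limma-voom, against 9.16% of all tested genes. The count was 28 with library totals alone (against 5.11%) and 29 without young adult replicate 1 (against 5.61%). It was 27 without aged replicate 2 (against 5.61%), 26 without aged replicate 3 (against 5.79%) and 65 without aged replicate 1 (against 12.2%). A window of 30 bases around the annotated start of each canonical transcript, 15 on each side, was searched on the transcribed strand for a C followed by at least 7 further letters that are C or T. It was found in 10 of the 58 tested factors (17.2%), in 3 of the 9 TOP factors and in 900 of 9349 tested genes with a canonical start (9.63%). The windows of 6 genes are shown with the matched tract in capitals. They set TOP factors with a match in the window (Eef1a1, Eef1g, Eif3f) beside TOP factors without one (Eef2, Eif4b). Beside them stands Eif2s3x, which was called higher and is not on the TOP list. Their GRCm39 positions are chr9:78388992-78389021 (minus) for Eef1a1, chr19:8944390-8944419 (plus) for Eef1g, chr7:108533606-108533635 (plus) for Eif3f, chr10:81012450-81012479 (plus) for Eef2, chr15:101982060-101982089 (plus) for Eif4b and chrX:93256301-93256330 (minus) for Eif2s3x.
Eef1a1: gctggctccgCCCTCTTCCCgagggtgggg
Eef1g: ccccacccctcgCTTTTTCCaactcagcgg
Eif3f: ttctgttctaggCTCTCTCTCTTTCTCggc
Eef2: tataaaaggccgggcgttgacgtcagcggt
Eif4b: agcacccacaagtctgtgcgccaggagact
Eif2s3x: ccgccttcccgccgCTTCCCCTTCgctccg

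Both kinds of window occurred among genes whose levels were higher and lower at 24m. The median log2FC of the 10 factors with a tract was −0.22 and that of the factors without it was −0.07. Among the 9 TOP factors the order was the reverse, with −0.16 for the 3 with a tract and −0.24 for those without. Over all tested genes the medians were 0.03 with and −0.01 without it. A tract in these windows is a match of letters near an annotated start, and the start used in these libraries may lie elsewhere. The match may begin before the annotated start, as it does for Eef1a1, Eef1g and Eif3f. A window without a match therefore does not show that the mRNA lacks a TOP tract.

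The genes around the factors were described from lists of the pathway, beside 4.17% called lower and 10.3% called higher over all tested genes. Among termination, recycling and rescue genes, 3 of 11 (27.3%) were called lower and 0 higher (median −0.54), namely Hbs1l (log2FC = −0.80), which frees stalled ribosomes, Mcts1 (−0.59), a partner in reinitiation, and Nemf (−1.42), a sensor of split ribosomes. Among the 8 tested mitochondrial translation factors, 3 (37.5%) were called lower and 0 higher (median −0.56), namely the initiation factor Mtif2 (−0.97) and the elongation factors Tsfm (−0.60) and Gfm1 (−0.68). Each of these 6 calls was lost in DESeq2 and without some libraries. Among poly(A) and cap associated regulators, 1 of 11 was called higher, the helicase Ddx3x (0.90). Of 15 tested genes that signal to translation, 1 was called higher and 1 lower. Mknk2, a kinase that phosphorylates eIF4E, had 4.32 ± 0.730 CPM at 6m against 17.3 ± 6.46 CPM at 24m, without overlap (SD, n = 4 per age; log2FC = 1.89, SE 0.415, padj = 0.00212), and Rps6kb2, a ribosomal protein S6 kinase gene, had a log2FC of −0.89 (padj = 0.0486). At 6m the Mknk2 level lay at the floor of those libraries, 3.69 to 5.42 CPM, and its mean over all 8 libraries was 9.1 counts. It thus passed the count filter through its aged libraries. Mknk2 was called higher in all 18 other settings that tested it, and the calls of Ddx3x and Rps6kb2 were lost in DESeq2 and without some libraries. The 2 tested genes of the Eef1akmt family had a median of −0.42, and neither was called.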

How the data were processed

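The authors sequenced RNA of 8 hemispheres on a MinION with ONT's direct RNA kit, mapped the reads to GRCm39 with minimap2 (version 2.24 in the submitters' processing notes) and assigned them to genes with featureCounts. What was deposited are raw counts, so the authors' later steps (low-count filter, quantile and row-wise median normalization, DESeq2) are not part of them. The labels name a cDNA kit where the methods name direct RNA; the methods were followed. Strand, overlap and multi-mapping settings are not given in the sources used here. Of the tested factors, 17 overlap a gene of the table on the opposite strand and 3 on the same strand. A near-identical copy exists for 11, which for 6 is in the table and for Eef1a1, Eef1g, Eif3e, Eif3m and Eif4a1 only outside it. Eif3j1 is not among the 11, since its match to Eif3j2 covers only 2379 of its 5427 bases. The values of all these factors are uncertain to that extent.

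All 8 columns were mapped to samples by their titles. Of the 22430 identifiers, 22281 matched the GENCODE vM39 annotation, which gave symbols, positions and canonical transcripts, and 149 did not. Copies were searched with BLAST+ 2.17.0 (identity of at least 95% over at least 50% of the transcript). Sequences come from the GRCm39 genome.

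The ages were compared with edgeR 4.0.16 in R 4.3.3 (quasi-likelihood test, TMM, age as the only term, mean count over 5). Standard errors follow from log2FC and F. Read shares of 5 pairs of paralogues were tested by exact permutation over 70 assignments of the libraries. limma 3.58.1 and DESeq2 1.42.0 served as alternatives. The tests were checked on simulated counts. Totals of 573152 to 1255424 counts set the precision, and limits from counts cover counting error only. The labels call the samples biological samples of separate males, so the spread is between mice.

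Values in every library are given for each called factor, for the factor with the most reads in each group by role and for both genes of each pair. The others named with values were picked with their values in view. The members and the gene lists were chosen with earlier results of these data known.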

Additional observations from a re-analysis of the deposited data

Results flagged for a closer look

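A closer look is due for 3 values at which 1 of 4 libraries of an age lay far from the other 3 by Dixon's criterion. Over the 54 groups of 4 that were examined, chance alone gives about 2.7. Eef1a2 in aged replicate 1 had 2407 CPM, where the other aged libraries had 1996 to 2023 CPM. Eif3f in aged replicate 1 had 550.3 CPM, where the other aged libraries had 429 to 433 CPM. The total of young adult replicate 2 was 573152 counts, where the other young adult libraries held 818963 to 843706 counts.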

How the results depend on the processing

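Eif4h, Eif4b, Eif2s3x and Eif5b were called in the same direction in all 19 other settings, and the number of factors called higher stayed at 3 in each. The number called lower was 2 and became 1 (Eif5b) with DESeq2, library totals alone, mitochondrially encoded genes left out, a mean count over 10, no filter, filterByExpr and the replicate block, 3 (with Eif2s2) with quantile normalization and limma-voom, 11 with adjusted p alone, and 1 to 5 when each library was left out in turn. It was 4 without young adult replicate 4 (with Eif2s2 and Eif2s3y), 5 without aged replicate 4 (with Eif2s1, Eif2s2 and Eif4g3) and 1 without young adult replicate 2. The cause was not tested. Values that changed sign were small: with library totals alone, log2FC was 0.062 for Eif1, 0.069 for Eif1b, 0.026 for Eif4a1 and 0.048 for Eif6, and with quantile normalization and limma-voom it was 0.076 for Eef1a1, 0.11 for Eef1a2 and 0.14 for Eif1. Leaving out single libraries gave −0.16 to 0.16 for Eef1e1, −0.082 to 0.074 for Eif1b and −0.12 to 0.014 for Eif6.

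Leaving out single libraries moved the difference in read share, 24m minus 6m in percentage points, from −0.690 to 1.25 for Eef1a2, from −1.65 to 0.485 for Eif4a2 and from −0.279 to 0.934 for Eif1b. For Eif4g2 it stayed between 11.5 and 18.5 and for Eif4ebp2 between 5.01 and 19.3, with p from 0.0286 to 0.0571 for Eif4g2.

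Same-numbered libraries of the ages showed no common deviation, with correlations from −0.160 to 0.0647, against −0.0953 to 0.113 for differently numbered ones. The replicate numbers were therefore not used to pair the mice in the main fit. Whether same-numbered libraries shared a preparation or run cannot be told from this check. With the replicate block, 3 factors were called higher and 1 lower, and the difference in the Eif4g2 share was 15.1 points with p = 0.125 in an exact sign-flip test, the smallest p that 4 pairs allow. At this depth, rare factors were measured loosely, with standard errors of 0.490 for Eif2s3y and 0.361 for Eif4ebp1 on the log2 scale.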
